A study of Mus musculus with 16 samples.

Results

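The genes of the respiratory chain were followed in primary mouse hippocampal cultures in which the DNA methyltransferase Dnmt3a1 was knocked down and neuronal activity was raised. The members were the protein-coding genes whose symbol begins with Ndufa, Ndufb, Ndufc, Ndufs, Ndufv, Sdha to Sdhd, Uqcr, Atp5 or Cox4 to Cox8, and all genes whose symbol begins with mt-. This rule gave 135 of the 55385 genes in the tables, of which 98 are nuclear and 37 lie on mitochondrial DNA. By prefix the rule takes up assembly factors as well, so the nuclear members were divided into 85 subunits and 13 assembly factors (Ndufaf1 to Ndufaf8, Sdhaf1 to Sdhaf4 and Atp5s). A further 13 genes with these prefixes are not annotated as protein-coding and were left out.

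The cultures were prepared from the hippocampi of newborn C57BL/6N mice and infected with recombinant adeno-associated virus that expresses a short hairpin RNA from a U6 promoter, with GFP to mark infected cells. Control-shRNA is the control hairpin, and Dnmt3a1-shRNA is directed against the long isoform of Dnmt3a, an enzyme that places new methyl groups on DNA. By the study's description, the sequenced knockdown cultures received a single hairpin sequence. Effects of this hairpin on other genes and effects of the loss of Dnmt3a1 therefore cannot be told apart here. Each culture was harvested in the baseline condition or after 4 h of bicuculline, which blocks GABA-A receptors and induces bursts of action potentials. The 4 groups held 4 libraries each, described by the study as independent neuronal preparations, and the shared replicate numbers 1 to 4 are not stated to mark a shared preparation. Only infected cultures were compared, and no animal or uninfected culture was among the 16 libraries. Each library was made from bulk RNA of all cells of the dish, so fewer cells of a type and less RNA per cell cannot be told apart.

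Respiratory complexes I to IV of the inner mitochondrial membrane pass electrons from NADH and succinate to oxygen. Complexes I, III and IV pump protons, and complex V, the ATP synthase, uses the proton gradient to make ATP. Complex II is encoded wholly in the nucleus, whereas complexes I, III, IV and V combine nuclear subunits with 13 proteins encoded by mitochondrial DNA. Assembly factors help to build the complexes and are not part of the finished enzyme. In neurons, oxidative phosphorylation supplies most of the ATP that is spent on synaptic transmission and on restoring ion gradients after firing.

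Libraries held 28912697 to 29586355 counted read pairs. Of 17222 genes that passed the filter on low counts, 93 were nuclear members (80 subunits and 13 assembly factors) and 20 were mt- genes (13 protein genes, 2 ribosomal RNAs and 5 of 22 tRNAs). The 5 nuclear members that did not pass were Cox4i2, Cox7b2, Cox8b, Cox8c and a second identifier named Atp5o, whose median lay between 0 and 0.352 TPM, the unit of transcript abundance corrected for length and depth. Dnmt3a, the targeted gene, stood at 293 to 324 CPM, the unit of counts scaled to the library size corrected by TMM, in Control-shRNA baseline and at 39.4 to 48.0 CPM in Dnmt3a1-shRNA baseline. With bicuculline it stood at 311 to 338 and at 43.8 to 47.8 CPM. The log2 fold change of the knockdown was -2.81 ± 0.06 (SE, edgeR quasi-likelihood test, adjusted p = 8.86e-15) at baseline and -2.85 ± 0.06 (adjusted p = 7.43e-15) with bicuculline. The value sums all transcripts of Dnmt3a, the short isoform included. All 11 neuronal markers were tested and detected, with a summed level of 8231 to 12281 CPM over the 16 libraries.

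Shared sequence limits how far single mitochondrial genes can be measured, since nuclear DNA of the mouse carries copies of mitochondrial genes. Within 24611535 to 24616197 of the minus strand of chromosome 1, 7 annotated pseudogenes (Gm10222, Gm10925, Gm28437, Gm28438, Gm28439, Gm28661 and Gm29216) held at least 90% of their 31-base words within 1 mt- gene. Gm28661 matches the first 681 of the 684 bases of mt-Co2, so that no read inside this stretch separates the 2 genes. The first 60 bases, identical in both, show this.
mt-Co2 and Gm28661: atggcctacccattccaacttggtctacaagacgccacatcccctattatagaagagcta
The authors' quantification divided such reads between gene and copy. Of the summed counts, the copy received 54.5% to 74.3% for mt-Co2, 28.8% to 50.003% for mt-Co3 and 83.1% to 90.5% for mt-Nd3, depending on the library. For mt-Co1 the copy received 8.20% to 11.8%, and for mt-Atp6 0.134% to 7.02%. Results for these 5 genes are therefore given as deposited and after adding the copy. Among the nuclear members, 35 shared at least 10% of their 31-base words with other genes, so their counts are less certain.

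Mitochondrial DNA is also compact, and neighbouring genes can share bases. In the following stretches of GRCm38 the bases shared by both genes are in capitals, read from the plus strand.
mt-Atp8 and mt-Atp6, M:7907-7989: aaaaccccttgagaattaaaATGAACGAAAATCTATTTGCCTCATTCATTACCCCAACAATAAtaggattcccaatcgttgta
mt-Nd4l and mt-Nd4, M:10147-10193: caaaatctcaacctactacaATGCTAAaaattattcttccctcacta
The overlap is 43 bases in the first pair, which encode both mitochondrial subunits of ATP synthase, and 7 bases in the second pair of complex I genes. The first overlap is a sizeable part of mt-Atp8, which has 204 bases, and a smaller part of mt-Atp6 with 681. The second is short beside mt-Nd4l with 297 bases and mt-Nd4 with 1378.

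The members covered a wide range of levels. On the TPM scale, which is corrected for transcript length, tested nuclear subunits of complex I had medians from 37.4 (Ndufb4) to 370 (Ndufb8), and those of complex II from 138 (Sdhc) to 193 (Sdhb). The low place of Ndufb4 is uncertain, since it shares 19.1% of its 31-base words with the pseudogene Ndufb4c, listed at a median of 278 TPM. In complex III the highest was Uqcr11 with 662, in complex IV Cox8a with 1634, and in complex V Atp5b, the catalytic beta subunit, with 1344. Assembly factors were lower, from 2.45 (Sdhaf3) to 43.8 (Ndufaf5). The 13 mt- protein genes ranged from 910 (mt-Nd3) to 24991 (mt-Atp6), and the ribosomal RNAs mt-Rnr1 and mt-Rnr2 had medians of 4309 and 4227 TPM.

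**Figure D1:**
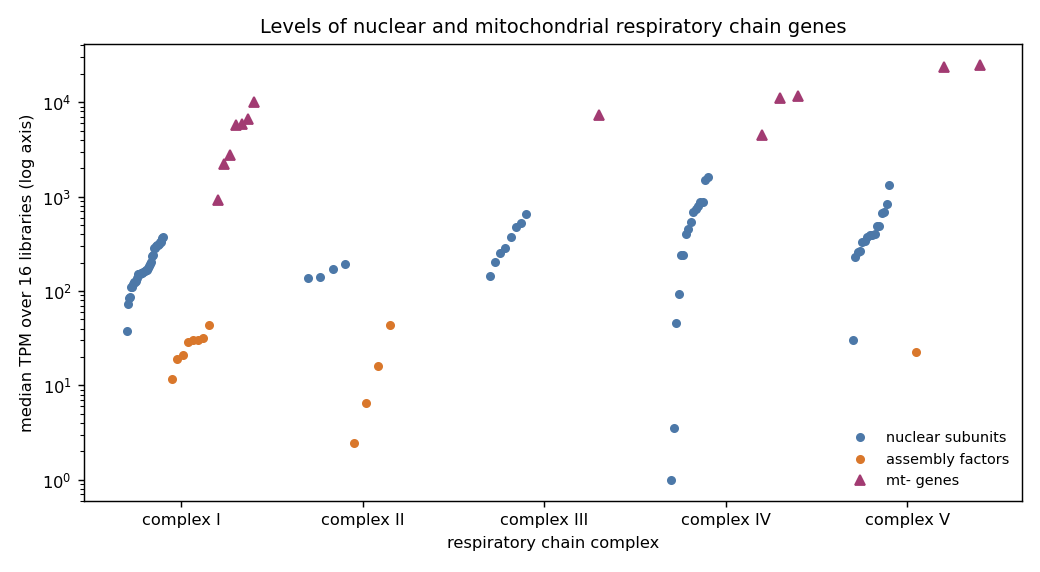
Median TPM over the 16 libraries (log axis) of each tested nuclear subunit, assembly factor and mt- protein gene, by complex. Assembly factors lie between 2.45 and 43.8 TPM, and mt- protein genes start at 910 TPM.

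Where a subunit has tissue-specific isoforms, 1 isoform mostly prevailed. Cox4i1 had a median of 873 TPM and Cox4i2, the form known from lung, 0.345. Cox6a1 had 1518 TPM against 45.6 for Cox6a2, known from heart and muscle. Cox6b1 had 867 TPM against 92.3 for the testis form Cox6b2, and Cox7a2 had 399 TPM against 3.54 for the muscle form Cox7a1. Cox8a stood alone, since Cox8b and Cox8c were listed at a median of 0. Of the genes for subunit c of the ATP synthase rotor, which encode the same mature protein, Atp5g1 had 670 TPM, Atp5g3 490 and Atp5g2 30.6. Atp5g2 shares 40.2% of its 31-base words with other genes, mainly the processed pseudogene Gm10175, listed at a median of 222 TPM. How reads were divided between Atp5g2 and Gm10175 was not tested, so the low level of Atp5g2 is uncertain. Ndufa4, which is counted here with complex IV, had 804 TPM against 0.992 for Ndufa4l2.

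The first comparison asked how the members differed between baseline and 4 h of bicuculline in each shRNA. Nuclear subunits were higher with bicuculline relative to the bulk of all genes, most often those of complexes IV and V, whereas 5 of 13 assembly factors passed as lower in each shRNA. The differences of the subunits were small. In Control-shRNA, 41 of the 80 tested subunits passed the test as higher and 0 as lower, and in Dnmt3a1-shRNA 45 passed as higher and 0 as lower. Of all genes tested, 19.5% passed as higher and 21.9% as lower in Control-shRNA, and 20.8% and 25.2% in Dnmt3a1-shRNA. The median log2 fold change of the subunits was 0.18 and 0.20, against 0.01 and -0.01 for all genes. With a fold limit of 0.5 on the log2 scale as well, 0 and 0 subunits remained, against 21.9% and 25.8% of all genes. The 2 comparisons use different libraries, and 32 subunits passed as higher in both, which is 78.05% of the first list and 71.11% of the second.

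These directions depend on how libraries are scaled. TMM sets the bulk of genes to no change. With library sizes alone, the median of all genes moved to -0.15 in Control-shRNA and -0.16 in Dnmt3a1-shRNA, and the median of the subunits to 0.02 and 0.05. The calls then were 3 higher and 1 lower subunit in Control-shRNA, and 7 higher and 4 lower in Dnmt3a1-shRNA, while 2058 and 2391 of all genes passed as higher and 5722 and 6068 as lower. On log2(TPM + 1), tested with limma, the median of the subunits was -0.01 and 0.00, with 1 higher and 0 lower in Control-shRNA and 1 higher and 5 lower in Dnmt3a1-shRNA. The gap between the median of the subunits and that of all genes was 0.17 and 0.20 with TMM, 0.17 and 0.21 with library sizes, and 0.13 and 0.13 on log2(TPM + 1). The nuclear subunits together took 0.870% to 0.916% of all counts in Control-shRNA baseline, 0.897% to 0.948% with bicuculline, 0.802% to 0.930% in Dnmt3a1-shRNA baseline and 0.832% to 0.933% with bicuculline. The ranges of the 4 groups overlapped.

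By complex, called subunits were most frequent at the end of the chain. Complex IV, cytochrome c oxidase, which hands electrons to oxygen, had 13 of 16 subunits higher in Control-shRNA and 11 of 16 in Dnmt3a1-shRNA, and the medians of its log2 fold changes were 0.28 and 0.29. In complex V the counts were 9 and 13 of 16, and in complex III, which oxidises ubiquinol, 4 and 4 of 8. Complex II, succinate dehydrogenase, had 2 and 0 of 4. In complex I, NADH dehydrogenase, 13 and 17 of 36 passed as higher. Of its 7 nuclear core subunits, which carry the flavin and the iron-sulfur clusters or bind them, 1 passed in each shRNA, and this was Ndufv1. The median of the core subunits was 0.03 and -0.02. With library sizes the counts of higher subunits fell to 1 and 3 in complex IV, 2 and 3 in complex V, 0 and 0 in complexes II and III, and 0 and 1 in complex I, where 1 and 4 were then lower, 1 and 3 of them core subunits. Ndufs1, the large core subunit, stood at 94.5 ± 6.88 CPM at baseline and 92.5 ± 7.86 CPM with bicuculline in Control-shRNA (SD, n = 4). Among the 48 subunits that shared under 10% of their sequence words with other genes, 22 and 25 were higher.

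**Figure D2:**
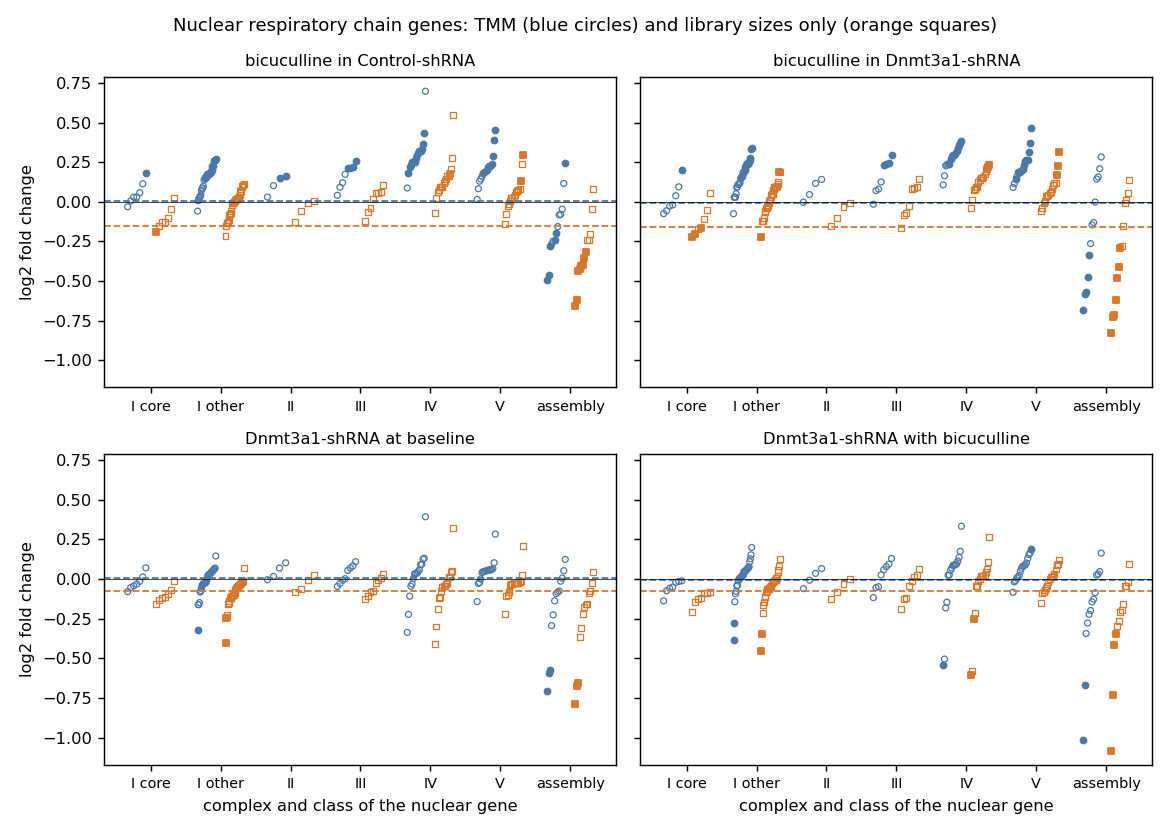
Log2 fold change of each tested nuclear member in the 4 comparisons, with TMM (blue circles) and with library sizes only (orange squares). Filled symbols have an adjusted p under 0.05 and dashed lines give the median of all genes. Assembly factors lie mostly below their line, and complex IV and V subunits above it in the bicuculline comparisons.

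Atp5d, the delta subunit in the central stalk of ATP synthase, had the largest called bicuculline change among subunits (chromosome 10, 80138632 to 80145818, plus strand). In Control-shRNA its 4 libraries gave 257, 245, 215 and 238 CPM at baseline and 340, 335, 308 and 322 CPM with bicuculline. In Dnmt3a1-shRNA they gave 247, 255, 219 and 218 CPM at baseline and 331, 311, 315 and 338 CPM with bicuculline. The groups did not overlap in either shRNA. The log2 fold change was 0.45 ± 0.07 (SE, adjusted p = 2.88e-05) and 0.46 ± 0.07 (adjusted p = 1.66e-05), and both calls held under every other scaling, test and filter and without any single library, but not with the fold limit of 0.5. The knockdown itself left Atp5d within the replicate spread, with -0.02 ± 0.07 at baseline and -0.01 ± 0.07 with bicuculline.

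Cox5a, a nuclear subunit of complex IV, gave 117, 112, 104 and 109 CPM at baseline and 141, 136, 134 and 147 CPM with bicuculline in Control-shRNA. In Dnmt3a1-shRNA it gave 117, 120, 104 and 103 CPM and then 135, 144, 139 and 149 CPM. All bicuculline libraries lay above all baseline libraries, and the log2 fold change was 0.33 ± 0.06 and 0.36 ± 0.06 (adjusted p = 0.000256 and 0.000115). On log2 TPM the adjusted p of Cox5a rose to as much as 0.122 and 0.062. Cox5a and Atp5d were the subunits called higher in both shRNAs with library sizes alone.

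The other leading subunits had calls that rest on the scaling by TMM in at least 1 shRNA. Atp5b rose from 884 ± 47.9 to 1082 ± 58.9 CPM in Control-shRNA (0.29 ± 0.06, adjusted p = 0.000899), and from 913 ± 55.1 to 1091 ± 49.8 CPM in Dnmt3a1-shRNA (0.26 ± 0.06, adjusted p = 0.00214; 0.0562 with library sizes). Cox8a rose from 271 ± 22.6 to 338 ± 8.61 CPM and from 289 ± 35.4 to 355 ± 20.1 CPM, and with library sizes the adjusted p was 0.167 and 0.196. Cox6c, another complex IV subunit, had log2 fold changes of 0.25 and 0.38, and the first was lost without Control-shRNA bicuculline replicate 4 (adjusted p = 0.0654). In complex I the largest called changes were those of the accessory subunits Ndufb6 in Control-shRNA (0.27 ± 0.07) and Ndufa1 in Dnmt3a1-shRNA (0.34 ± 0.10). Uqcrq of complex III had 0.26 ± 0.08 and 0.29 ± 0.08, and the first was lost without Control-shRNA baseline replicate 3 (adjusted p = 0.0517). Sdha, the flavoprotein of complex II, had 0.17 ± 0.06 in Control-shRNA (adjusted p = 0.0411, lost without any of 5 single libraries) and 0.14 ± 0.06 in Dnmt3a1-shRNA (adjusted p = 0.0741). Ndufa4l2 had the highest value in Control-shRNA, 0.70 ± 0.34, but its adjusted p was 0.109 at a mean of 0.309 to 0.5 CPM.

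Of the 13 assembly factors, 5 were lower and 1 higher with bicuculline in Control-shRNA, and 5 were lower and 0 higher in Dnmt3a1-shRNA. The 5 lower genes were Ndufaf1, Ndufaf4, Ndufaf7, Sdhaf1 and Sdhaf2 in both, and Ndufaf5 was the higher one (0.24 ± 0.07, adjusted p = 0.0109). Their median log2 fold change was -0.19 and -0.15. With library sizes 8 and 7 were lower and 0 and 0 higher. Over all nuclear members, this made 42 higher and 5 lower in Control-shRNA and 45 higher and 5 lower in Dnmt3a1-shRNA, against 3 and 9, and 7 and 11, with library sizes.

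Ndufaf4, an early assembly factor of complex I, gave 24.8, 23.6, 25.0 and 30.0 CPM at baseline and 20.9, 15.02, 19.0 and 20.3 CPM with bicuculline in Control-shRNA. In Dnmt3a1-shRNA it gave 26.7, 21.4, 25.2 and 25.0 CPM and then 15.3, 15.8, 15.7 and 18.7 CPM. The bicuculline libraries lay below the baseline libraries in both shRNAs. The log2 fold change was -0.46 ± 0.11 (adjusted p = 0.00205) and -0.58 ± 0.11 (adjusted p = 0.000233), and both held under every other scaling, test and filter and without any single library. The first did not pass the fold limit of 0.5.

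The second comparison asked which members the knockdown changed. Few nuclear members passed the test, and most of those that did were lower: the assembly factors Ndufaf7, Sdhaf1 and Sdhaf3 and the subunits Ndufb4, Ndufb10 and Cox6a2. At baseline 4 of 93 nuclear members were lower and 0 higher, where 8.12% of all genes were higher and 8.19% lower. With bicuculline 5 were lower and 1 higher, where 7.69% of all genes were higher and 9.99% lower. With library sizes the counts were 5 lower and 0 higher, and 8 lower and 0 higher. With the fold limit 3 members passed at baseline (Ndufaf7, Sdhaf1 and Sdhaf3), where 5.83% of all genes did. With bicuculline 3 also passed (Ndufaf7, Sdhaf1 and Cox6a2), where 5.89% of all genes did. The medians of the 80 subunits were 0.03 and 0.03, and those of the 13 assembly factors -0.09 and -0.14.

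Ndufaf7, a methyltransferase of the mitochondrial matrix that is needed for complex I assembly, was lower under both manipulations (chromosome 17, 78937136 to 78948052, plus strand). Its 4 libraries gave 25.8, 23.6, 24.2 and 26.8 CPM in Control-shRNA baseline and 22.8, 20.2, 19.4 and 22.6 CPM with bicuculline. In Dnmt3a1-shRNA they gave 17.6, 16.02, 17.4 and 16.4 CPM at baseline and 10.4, 10.1, 10.1 and 11.5 CPM with bicuculline. No group overlapped another in the 4 comparisons, which share samples with each other. The knockdown changed it by -0.57 ± 0.07 (adjusted p = 3.75e-05) at baseline and by -1.01 ± 0.08 (adjusted p = 8.15e-08) with bicuculline. Bicuculline changed it by -0.24 ± 0.07 (adjusted p = 0.0121) in Control-shRNA and by -0.68 ± 0.08 (adjusted p = 9.51e-07) in Dnmt3a1-shRNA. The difference between these changes, the interaction, was -0.44 ± 0.10 and did not pass the adjustment over all genes (adjusted p = 0.425).

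Sdhaf1, which helps to insert the iron-sulfur clusters of complex II, gave 11.2, 12.6, 11.4 and 12.6 CPM in Control-shRNA baseline and 8.86, 8.56, 7.96 and 8.52 CPM with bicuculline. In Dnmt3a1-shRNA it gave 8.36, 7.62, 8.38 and 7.27 CPM and then 4.43, 5.70, 6.70 and 4.47 CPM. Again no compared groups overlapped, and the log2 fold changes of the knockdown were -0.59 ± 0.11 (adjusted p = 0.00124) at baseline and -0.67 ± 0.12 (adjusted p = 0.000707) with bicuculline. Those of bicuculline were -0.50 ± 0.11 (adjusted p = 0.00148) and -0.57 ± 0.12 (adjusted p = 0.000584). Sdhaf1 shares 69.9% of its sequence words with other genes, mainly the overlapping E130208F15Rik, which was listed at 0 CPM in all libraries. Whether the counts of Sdhaf1 include reads from the overlapping gene was not tested.

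Sdhaf3, another maturation factor of complex II, was lower in the knockdown at baseline. It gave 6.78, 5.59, 6.78 and 6.81 CPM in Control-shRNA and 4.64, 3.69, 4.35 and 3.20 CPM in Dnmt3a1-shRNA (-0.71 ± 0.12, adjusted p = 0.000561). With bicuculline it gave 5.96, 5.54, 6.86 and 6.14 CPM against 4.43, 5.15, 4.63 and 5.10 CPM (-0.34 ± 0.12, adjusted p = 0.0578). The calls named for Ndufaf7, Sdhaf1 and Sdhaf3 held under every other scaling, test and filter and without any single library. With the fold limit of 0.5, those of Ndufaf7 and Sdhaf1 for bicuculline in Control-shRNA were lost. The complex II subunits Sdha, Sdhb, Sdhc and Sdhd had log2 fold changes between -0.06 and 0.10 in the knockdown comparisons, none of them called.

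**Figure D3:**
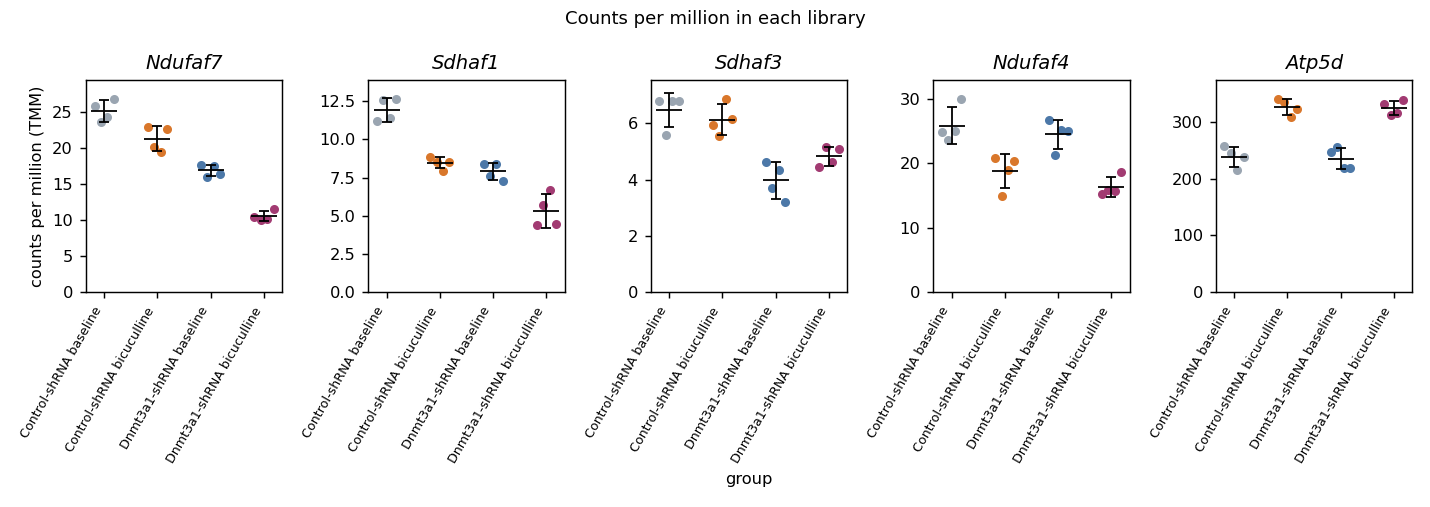
CPM (TMM) of Ndufaf7, Sdhaf1, Sdhaf3, Ndufaf4 and Atp5d in each of the 16 libraries, with the mean and SD of each group of 4 (bars). Ndufaf7 steps from 25.1 over 21.2 and 16.9 to 10.5 CPM without overlap, and Atp5d differs by condition and not by shRNA.

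Among subunits, Ndufb4 of complex I was lower in the knockdown, with 15.3, 16.7, 15.6 and 16.9 CPM against 12.6, 12.3, 14.4 and 12.3 CPM at baseline (-0.32 ± 0.08, adjusted p = 0.0093). With bicuculline it gave 17.6, 15.4, 16.3 and 19.3 CPM against 12.9, 13.4, 12.6 and 13.8 CPM (-0.38 ± 0.08, adjusted p = 0.00304). Both comparisons were without overlap, but on log2 TPM the adjusted p was 0.0673 to 0.0956. Ndufb4 shares 19.1% of its words with other genes, among them the processed pseudogene Ndufb4c. Ndufb4c stood above Ndufb4, with a mean of 32.7 CPM in Control-shRNA and 26.9 CPM in Dnmt3a1-shRNA at baseline. With bicuculline its means were 34.0 and 27.4 CPM. In the knockdown Ndufb4c changed by -0.28 ± 0.09 (adjusted p = 0.0374) and -0.31 ± 0.09 (adjusted p = 0.0219). How reads were divided between Ndufb4 and Ndufb4c was not tested. Ndufb10 was lower in the knockdown with bicuculline (-0.28 ± 0.06, adjusted p = 0.00426), at 46.8 ± 2.31 against 38.5 ± 1.56 CPM. Cox6a2 was lower in the knockdown with bicuculline, with 14.2, 18.4, 17.6 and 12.8 CPM against 9.22, 10.6, 14.3 and 9.23 CPM. These groups overlap, and the call (-0.54 ± 0.17, adjusted p = 0.033) was lost without any of 5 single libraries. For bicuculline in Control-shRNA, Cox6a2 was called higher (0.44, adjusted p = 0.0437), a call lost without any of 7 single libraries. Atp5l, a membrane subunit of ATP synthase, was the 1 member called higher in the knockdown, with bicuculline (0.19 ± 0.06, adjusted p = 0.0325). This call too was lost without any of 5 single libraries.

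The interaction asked whether the response to bicuculline differed between the shRNAs. It was called for 0 members and 0% of the 17222 genes with edgeR. At an unadjusted p under 0.05 it held 852 of all genes, 3 nuclear members (Ndufaf7, Sdhaf3 and Sdhaf4, the last with 0.46 and adjusted p = 0.877) and 0 mt- genes. DESeq2 called 17 genes and the fit with the replicate block 3, none of them a member.

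The promoters of the members were inspected for known motifs of respiratory gene regulation, in windows of 250 bases before to 50 after the start of each RefSeq gene model on GRCm38.p6. Of 98 nuclear members, 81 identifiers matched, representing 80 genes. On either strand, the NRF1 letters GCGCATGC were found in 15% of these 80 and in 3.05% of all 27025 genes with a promoter. A gene was counted if any of its windows held the letters. The ETS letters CCGGAAG, bound by GABP, were found in 26.2% against 9.93%, and the YY1 letters AAGATGGC in 13.8% against 3.19%. The ERR letters CAAGGTCA occurred in 5% against 1.76%, and the CRE letters TGACGTCA in 5% against 2.03%. Here 3 promoters are shown as 150 bases 5′ to 3′, with matched letters in capitals: Cox6a1 for the subunits higher with bicuculline, Ndufaf4 for the assembly factors lower with it, and Ndufaf7, in which none of the motifs was found in this window.
Cox6a1, 5:115348959-115349108, minus strand: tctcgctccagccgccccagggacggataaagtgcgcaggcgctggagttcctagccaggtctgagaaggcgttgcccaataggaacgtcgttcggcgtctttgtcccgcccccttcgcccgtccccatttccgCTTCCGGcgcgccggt
Ndufaf4, 4:24897933-24898082, plus strand: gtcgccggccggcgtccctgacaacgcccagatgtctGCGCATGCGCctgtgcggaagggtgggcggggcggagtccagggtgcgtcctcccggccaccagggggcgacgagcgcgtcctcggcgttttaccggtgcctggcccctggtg
Ndufaf7, 17:78936985-78937134, plus strand: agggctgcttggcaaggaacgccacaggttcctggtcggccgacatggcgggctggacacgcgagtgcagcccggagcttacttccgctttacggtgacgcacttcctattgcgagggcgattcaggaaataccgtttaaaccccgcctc
In Cox6a1 the capitals are the ETS letters on the reverse strand, and in Ndufaf4 they are overlapping NRF1 letters of both strands. Cox6a1 is not typical, since 16 of 68 subunits held the ETS letters. The same 150 bases of Atp5d, Cox5a, Atp5b and Cox8a, also higher with bicuculline, held none of the motifs. The member promoters held a median of 20 CG in 300 bases against 8 for all genes, and the NRF1, ETS and CRE letters each contain CG. A match is a description of letters and not of binding.

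The mt- genes behaved differently from the nuclear genes in their spread. As deposited, all 13 mt- protein genes had a log2 fold change above 0 in each of the 4 comparisons, and none passed the test without a block. The medians were 0.27 and 0.28 for bicuculline in Control-shRNA and Dnmt3a1-shRNA, and 0.33 and 0.34 for the knockdown at baseline and with bicuculline. Without single libraries they ranged from 0.07 to 0.44, 0.06 to 0.45, 0.17 to 0.51 and 0.17 to 0.59 in this order. These extremes came from leaving out a library of number 1, except the highest for the knockdown at baseline, which came without Dnmt3a1-shRNA baseline replicate 3. The lowest adjusted p was 0.0748, for mt-Co1 with bicuculline in Dnmt3a1-shRNA. With library sizes the medians were 0.11, 0.13, 0.24 and 0.27 in the same order, and 11, 10, 13 and 13 of the 13 genes were above 0. At an unadjusted p under 0.05 there were 0, 1, 2 and 0 of the 13 genes in the 4 comparisons, in the order given.

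The libraries of a group differed more than the groups did. All 37 mt- genes together took 4.75%, 3.70%, 2.80% and 3.94% of the counts in Control-shRNA baseline, replicates 1 to 4, and 5.86%, 4.15%, 3.34% and 3.87% with bicuculline. In Dnmt3a1-shRNA they took 5.99%, 4.84%, 2.73% and 4.53% at baseline and 6.60%, 5.55%, 3.58% and 5.04% with bicuculline. Replicate number 1 was highest and number 3 lowest for every one of the 13 protein genes in every group (52 of 52 combinations), also after the copies were added. Markers of fibroblasts and vessels had the opposite order, with a summed level of 63.1 to 98.5 CPM in number 1, the lowest of each group, and 95.6 to 139 CPM in number 3, the highest. The TMM factors also followed the number, lowest in number 1 (0.871 to 1.0435) and highest in number 3 (0.968 to 1.1236) of each group. Neuronal markers summed highest in number 1 except in Control-shRNA baseline. Astrocyte markers summed highest in number 3 except in Control-shRNA bicuculline. The part of these markers and of the scaling in the order of the mt- genes was not tested.

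**Figure D4:**
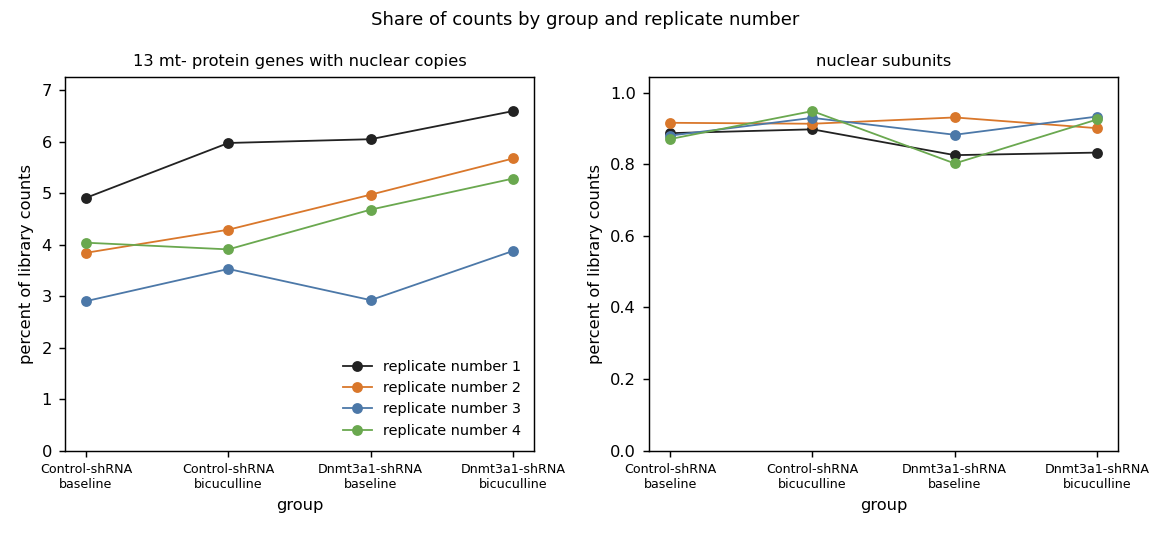
Percent of library counts taken by the 13 mt- protein genes with their nuclear copies (left) and by the nuclear subunits (right), 1 point a library, with lines joining equal replicate numbers. Number 1 is highest and number 3 lowest in each group at the left, whereas the lines cross at the right.

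Comparing equal numbers, the share of the mt- genes was higher with bicuculline in 3 of 4 pairs in Control-shRNA, with ratios of 1.23, 1.12, 1.19 and 0.982, and in 4 of 4 in Dnmt3a1-shRNA, with 1.102, 1.145, 1.31 and 1.11. For the knockdown it was higher in 3 of 4 pairs at baseline (1.26, 1.31, 0.975 and 1.15) and in 4 of 4 with bicuculline (1.12, 1.34, 1.07 and 1.30). In CPM, 7 of the 13 genes were higher in all 4 pairs for bicuculline in Control-shRNA and 10 in Dnmt3a1-shRNA, and 8 and 11 for the knockdown. After adding the copies these counts were 6 and 11, and 8 and 13. The same count was not made for all genes. Bicuculline in Dnmt3a1-shRNA and the knockdown with bicuculline, which gave the higher counts, were not read as paired by the check described below. The 13 genes shared their highest and lowest library in every group, so they are not independent observations.

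In the comparison of bicuculline in Control-shRNA and in that of the knockdown at baseline, libraries of equal number correlated above 0.1 in every pair. Both were read as paired by this limit alone, although number 4 correlated better with another number in each. In a fit with the replicate number as a block, 11 of the 20 tested mt- genes were higher in the first and 12 in the second, and 0 lower, where 25.1% and 14.7% of all genes were higher. Protein genes made up 8 and 12 of these, each with a log2 fold change of at least 0.23. mt-Co1, the catalytic core of complex IV, gave 8942, 6532, 4787 and 7452 CPM at baseline and 14227, 9793, 7496 and 8397 CPM with bicuculline in Control-shRNA. Its log2 fold change was 0.53 ± 0.27 (adjusted p = 0.126) without the block and 0.52 (adjusted p = 2.6e-05) with it. For the knockdown at baseline it was 0.27 ± 0.26 (adjusted p = 0.55) without the block and 0.23 (adjusted p = 0.035) with it. mt-Nd6, the single protein gene on the light strand and a subunit of complex I, gave 0.02 ± 0.27 and 0.29 ± 0.27 without the block, and was not called with it (adjusted p = 0.935 and 0.0574). With the block and library sizes alone, 4 and 8 mt- genes were higher. The count of called mt- genes thus rests on the block and moves with the scaling.

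The nuclear copies moved single values. In the knockdown at baseline, mt-Co2 gave 1146, 730, 661 and 883 CPM against 2263, 1700, 621 and 1661 CPM as deposited, a log2 fold change of 0.87 ± 0.37 (adjusted p = 0.124). With Gm28661 added it was 0.34 ± 0.28. mt-Nd3 moved from 0.61 to 0.40 in the same comparison, from 0.27 to 0.42 for the knockdown with bicuculline, where it was then the 1 called mt- gene, and from 0.43 to 0.04 for bicuculline in Control-shRNA. The copy of mt-Atp6, Gm10925, stood at 5.14 to 106.5 CPM in Control-shRNA baseline and at 176 to 313 CPM in Dnmt3a1-shRNA baseline (2.22 ± 0.55, adjusted p = 0.0104). It is a small part of the summed counts, and mt-Atp6 itself had 0.36 ± 0.23 as deposited. The ribosomal RNAs mt-Rnr1 and mt-Rnr2 had log2 fold changes from 0.14 to 0.46 in the 4 comparisons, none of them called without the block.

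**Figure D5:**
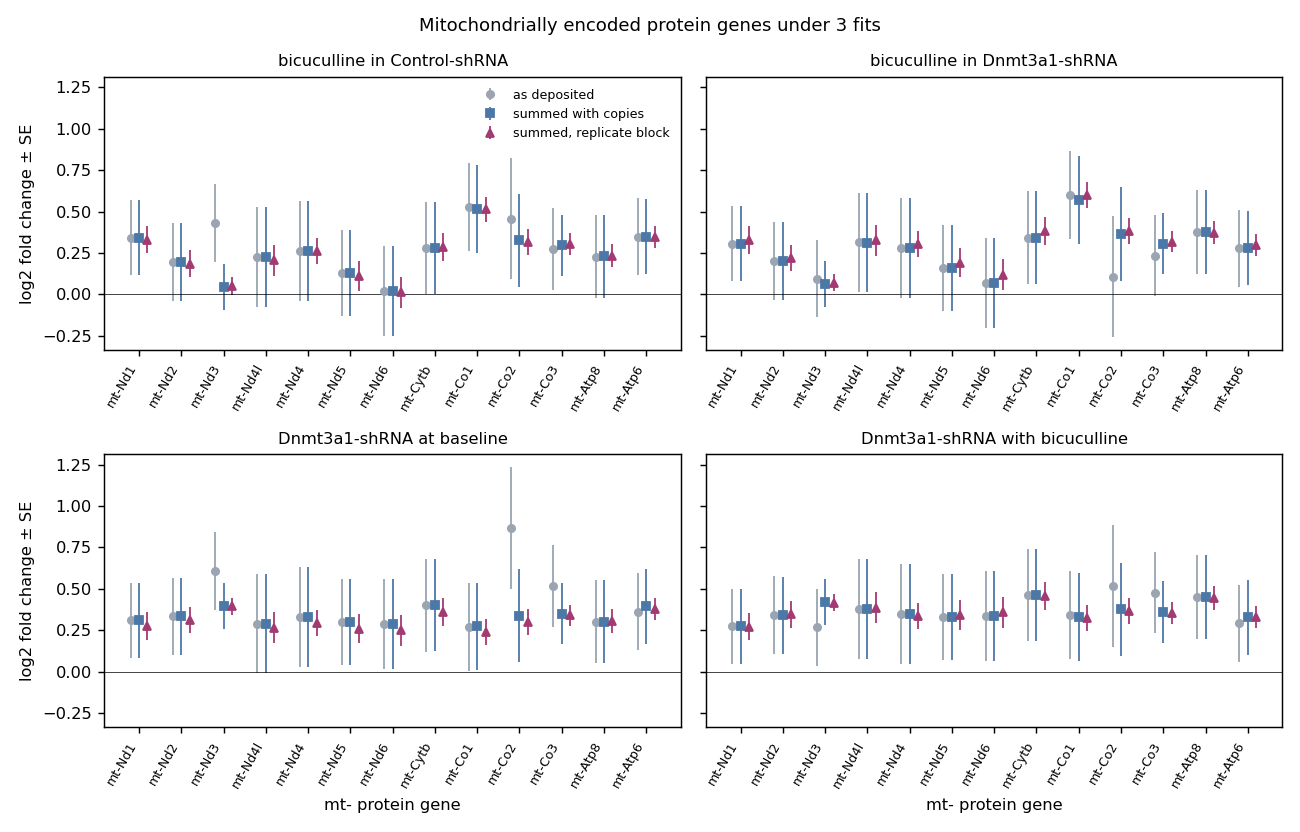
Log2 fold change with SE of the 13 mt- protein genes in the 4 comparisons, as deposited (grey circles), with nuclear copies added (blue squares) and with copies and the replicate block (purple triangles). Adding the copies moves mt-Nd3, mt-Co2 and mt-Co3, and the block leaves the values and shortens the SE.

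Related gene lists were read beside the members, as counts of genes called higher and lower among those tested. Of all genes, 19.5% and 20.8% were higher and 21.9% and 25.2% lower with bicuculline, and several of the smaller lists lie near these shares. Of 23 genes for copying and transcribing mitochondrial DNA, 1 was higher and 16 were lower with bicuculline in each shRNA, and 0 and 1 were higher and 16 and 17 lower with library sizes. Polrmt, the mitochondrial RNA polymerase, had -0.53 and -0.66, its elongation factor Tefm -0.92 and -1.19, and the termination factor family member Mterf2 -1.25 and -1.43. Tfam, which packages mitochondrial DNA, had -0.60 in Dnmt3a1-shRNA. The knockdown changed 1 higher and 1 lower at baseline, and 0 and 1 with bicuculline. Of the mt- genes themselves, 0 were called lower in any of the 4 comparisons, with or without the block.

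Among assembly genes outside the member rule, more passed as lower than as higher with bicuculline. Of 9 for complex I, 4 and 5 were lower and 0 and 0 higher, and of 26 for complexes III and IV, 10 and 13 were lower and 3 and 3 higher. Tmem126b, a complex I assembly factor, changed by -0.63 and -0.80 with bicuculline and by -0.55 and -0.73 in the knockdown. Tmem186 of the same pathway had -0.90 and -0.91 with bicuculline, and Timmdc1 had -0.57 in the knockdown with bicuculline. The copper chaperone Sco2 had -0.51 and -0.999 and Coa6 -0.54 and -0.84, whereas Ttc19, which acts on complex III, was higher (0.59 and 0.60). Of 4 genes for ATP synthase assembly and inhibition, 1 was lower in each shRNA, Atpaf1 with -0.38 and -0.71. With library sizes the counts were 0 higher and 7 and 6 lower for complex I, and 1 and 1 higher and 14 and 16 lower for complexes III and IV. For ATP synthase 1 and 1 were lower. This scaling moved the median of all genes to -0.15 and -0.16, so it could not have turned lists that were already lower. Of all 17222 genes, 5722 and 6068 then passed as lower.

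Of 18 genes of the tricarboxylic acid cycle, which feeds electrons to the chain, 9 and 6 were higher and 1 and 1 lower with bicuculline, and 0 and 0 higher and 1 and 3 lower with library sizes. Of 10 carriers of nucleotides, phosphate and protons, 4 and 3 were higher and 0 and 0 lower (1 and 1 higher and 2 and 2 lower with library sizes), and Slc25a3, the phosphate carrier, had 0.53 and 0.56. Of 2 genes for cytochrome c and cytochrome c1, 1 and 1 were higher, and 0 and 0 with library sizes. Of 18 genes for ubiquinone synthesis and electron entry, 5 and 7 were lower and 0 and 1 higher with bicuculline, and 3 and 5 were lower and 0 and 0 higher in the knockdown. The last list held the largest knockdown changes. Gpd2, the mitochondrial glycerol phosphate dehydrogenase that passes electrons to ubiquinone, had -1.77 ± 0.06 and -1.91 ± 0.06 (adjusted p = 2.62e-12 and 8.49e-13), and Coq8a of the ubiquinone pathway had -1.06 and -0.86. Of 14 nuclear regulators of respiration genes, 2 and 1 were higher and 1 and 3 lower with bicuculline (0 and 0 higher and 4 and 5 lower with library sizes), and Gabpa, a subunit of the ETS factor GABP, had -0.76 in Control-shRNA.

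Cell type markers changed with the conditions as well. The 11 neuronal markers summed to 8231 to 9156 CPM in Control-shRNA baseline and to 10080 to 10763 CPM with bicuculline, and to 9044 to 10357 and 10661 to 12281 CPM in Dnmt3a1-shRNA. With bicuculline, 6 and 6 of them were higher and 1 and 2 lower. The 10 astrocyte markers summed to 729 to 950, 748 to 1028, 745 to 1101 and 912 to 1174 CPM in the same order, with 1 called higher in each comparison. Their median log2 fold change was 0.40 and 0.41 in the knockdown, and all 10 were tested. The 10 fibroblast and vessel markers summed to 63.1 to 95.6, 69.3 to 124, 73.2 to 119 and 98.5 to 139 CPM in the same order. Their sum was higher with bicuculline and in the knockdown within every replicate number. Single markers were less uniform. Of the 9 tested, 2 and 1 were called higher and 1 and 0 lower with bicuculline. In the knockdown 1 and 2 were called higher and 1 and 0 lower. The 9 microglial markers stayed at 3.16 to 6.35 CPM in sum. The part of the cell mixture in the values of the members was not tested.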

How the data were processed

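Libraries from 16 cultures, 4 in each of 4 groups taken from the labels, were quantified by the authors with kallisto on GRCm38.p6 after trimming with Trim Galore 0.6.4. The deposited values are estimated counts and TPM per gene, the latter scaled by the authors to transcript length and library total. Gene symbols, classes and coordinates came from GENCODE, to which 55144 of 55385 identifiers matched without their version and 54487 with it.

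Estimated counts were rounded to whole numbers. After edgeR's filterByExpr and TMM, all 4 groups were fitted together with edgeR 4.0.16 (R 4.3.3), and 5 contrasts were tested by its quasi-likelihood test. p-values were adjusted by Benjamini-Hochberg over 17222 genes, with calls made at values under 0.05. CPM are scaled by TMM, with factors from 0.871 to 1.12. The totals of 28912697 to 29586355 counts limit precision most for genes of low level, such as Ndufa4l2. The p-values measure the spread between these libraries, which are independent preparations by the study's description.

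Alternatives were library sizes without TMM, DESeq2 1.42.0, its size factors, voom with limma 3.58.1, limma on log2(TPM + 1) and log2(TPM + 0.1), no filter, only the groups compared, mt- genes out of the scaling, a fold limit of 0.5, members sharing under 10% of 31-base words, the replicate number as a block, and each of 16 libraries left out. Adding nuclear copies to mt- genes, and combining the block with this or with library sizes, was chosen after seeing the data.

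Pairing was checked by correlating, across 17222 genes, the deviations from the group means of libraries with equal numbers. Every pair exceeded 0.1 for bicuculline in Control-shRNA (0.142 to 0.221) and for the knockdown at baseline (0.204 to 0.355). This was not so for bicuculline in Dnmt3a1-shRNA (0.0631 to 0.337) or the knockdown with bicuculline (0.0667 to 0.388). The block is therefore read beside the result in the first pair of comparisons.

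Members and gene lists were chosen with earlier results of these data known. Named members are those past the adjusted p and the fold limit of 0.5, the 13 mt- protein genes, the most abundant and most changed subunit of each complex, and paired isoforms. Cox5a, Ndufb10, Ndufs1, Ndufv1, Ndufaf1, Ndufaf5, Sdhaf2, Sdhaf4, the mt- ribosomal RNAs and the nuclear copies were named after their values were seen. Fitting was tested on simulated data.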

Additional observations from a re-analysis of the deposited data

Results flagged for a closer look

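In 84 groups of 4 libraries, over the named members, the highest or lowest library was set against the others by Dixon's ratio of its gap to the range of the group, at the 95% critical value, which chance exceeds in about 1 of 20 groups. In all, 2 groups exceeded it. Ndufaf4 in Dnmt3a1-shRNA with bicuculline had 18.7 CPM in replicate 4 against 15.3, 15.7 and 15.8 CPM in the others (ratio 0.846). Sdhaf3 in Control-shRNA baseline had 5.59 CPM in replicate 2 against 6.78, 6.78 and 6.81 CPM (ratio 0.975). The calls of both genes held without these libraries.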

How the results depend on the processing

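The number of called nuclear members with bicuculline depended on the fold limit and the scaling. For bicuculline in Control-shRNA it was 47, and became 12 with library sizes, 21 with library sizes and the block, 8 on log2(TPM + 1), 8 on log2(TPM + 0.1), 29 without a filter, 27 among members sharing under 10% of their words and 0 with the fold limit. In Dnmt3a1-shRNA it was 50, and became 18, 26, 13, 12, 29 among members sharing under 10%, and 3 with the fold limit. For the knockdown at baseline 4 became 14 with library sizes and the block and 2 among members sharing under 10%. With bicuculline 6 became 15 and 3 under the same settings, 11 with the replicate block and 3 with the fold limit.

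For mt- genes, 0 were called in each comparison. With the replicate block the counts were 11 and 12 for bicuculline in Control-shRNA and Dnmt3a1-shRNA, and 12 and 13 for the knockdown at baseline and with bicuculline. With copies added and the block they were 11, 14, 12 and 14, and with library sizes and the block 4, 4, 8 and 10. Without a filter 1 was called for bicuculline in Dnmt3a1-shRNA and 2 for the knockdown at baseline, where fitting only the groups compared gave 1. With copies added 1 was called for the knockdown with bicuculline.

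Leaving out single libraries gave 33 to 51 and 34 to 53 called nuclear members for bicuculline, 4 to 5 and 4 to 8 for the knockdown, and 0 to 0 for the interaction. For mt- genes it gave 0 to 0, 0 to 1, 0 to 2 and 0 to 0. The fold changes of Sdha and Sdhb, called higher for bicuculline in Control-shRNA, fell to -0.04 and -0.05 under other settings, where neither was called. In all 4 comparisons at least 1 library correlated better with another number than with its own, in those read as paired number 4 (0.142 against 0.238, and 0.204 against 0.216). The counts with the block are a hint from the data and not from the design. The causes were not tested.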
